A study of Bos taurus with 16 samples.

Results

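Fc receptors are the cell surface proteins through which leukocytes recognise the constant region of antibodies, and 7 of their genes were measured here in the endometrial and blood CD14+ cells of pregnant cows. The genes were chosen by name, as all those whose symbol on the array, or the symbol in brackets in the array's description, begins with FCGR, FCER or FCAR. These 7 genes had 8 of the 21475 probes, and all 8 probes were among the 16654 tested. They were FCGR1, FCGR2A with a pair of probes, FCGR3A, FCGRT, FCER1G, FCER2 and FCAR. A further probe, named FCGR3A in the array's accession field alone, lies outside the rule and is given beside FCGR3A as its probe 2. By the gene table of RefSeq for ARS-UCD2.0, the gene named FCGR1 on the array is FCGR1A. The gene named FCGR2A on the array carries the accession of FCGR2B, the inhibitory receptor, in the same table, while FCGR2A is there another gene. The array's names are kept below.

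CD14 helps cells to sense lipopolysaccharide of bacteria and marks monocytes and macrophages. The 2 groups were CD14+ cells from the interplacentomal endometrium of the pregnant horn and CD14+ mononuclear cells from cardiac blood, both sorted from the same 4 cows, animals 1 to 4, at days 164, 239, 242 and 248 of pregnancy. There was no non-pregnant group, and stage of pregnancy and animal cannot be told apart. Amplified RNA of both cell preparations of an animal was hybridized together on 2-colour Agilent bovine arrays, with 2 arrays for each animal and the dyes exchanged between them in 3 of the 4 animals. Levels below are log2 normalized intensities, in which the dimmest probes of the array lie at about 6, and ratios are log2 differences of endometrium minus blood within an animal, as the mean of its 2 arrays. Errors are the SE of the limma fit over the 4 animals unless given as SD, and tests are limma's moderated test against 0 with Benjamini-Hochberg adjustment over all 16654 probes. The number of animals and arrays limits the precision of every value.

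The direction of the ratios of animals 1, 2 and 4 rests on which scanner file belongs to which array. All 16 columns of the authors' log2 values matched the scanner file attached to the animal's other array, and no more than 0.689% of probes matched the file attached to the sample itself. The files were therefore read with the labels of the other array, a choice made after the files had been examined. Read as attached, the tissues of animals 1, 2 and 4, whose dyes were exchanged, change places, and the mean log2 ratios become -0.37 for FCGRT, -0.49 for FCGR1 and -0.62 for FCGR3A with probe 1, while FCAR keeps its direction at 0.49. In animal 3, whose tissues are the same by either reading, the median log2 ratio was 4.07 for trophoblast markers and 4.11 for epithelial markers. With the files read as here, animals 1, 2 and 4 had medians of 3.79, 3.58 and 3.58 for the trophoblast markers and 3.01, 2.49 and 2.65 for the epithelial markers.

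Fc receptors differ in which antibody they bind and in what they do with it. The high-affinity IgG receptor FCGR1 and the low-affinity receptor FCGR3A, known as CD16, carry no activating signal of their own and pair with a small signalling chain, FCER1G, whose tail holds an immunoreceptor tyrosine-based activation motif. FCGR2B counters such signals, FCAR binds IgA, FCER2 or CD23 binds IgE with low affinity, and FCGRT is the neonatal receptor, which binds IgG inside the cell, protects it from degradation and carries it across cell layers. In cattle IgG does not cross the placenta in amounts that protect the calf, which takes its antibodies from colostrum.

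The probes are 60 bases long, and those that carry the main values are shown because each value rests on them. The FCER1G probe and the first FCGR3A probe are given whole, 5′ to 3′. Of the FCGRT, FCGR1, second FCGR3A and both FCGR2A probes the first 30 bases are given. Capitals in the FCER1G probe mark the tyrosine and leucine codons of the activation motif, which in a frame without a stop codon forms 2 pairs of a tyrosine codon and, after a gap of 2 codons, a leucine codon, with 7 codons between the pairs. Of all 21475 probes, 31 or 0.144% held such a frame with at least 2 pairs.
FCER1G: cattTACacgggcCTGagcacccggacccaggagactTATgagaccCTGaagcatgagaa
FCGR3A, probe 1: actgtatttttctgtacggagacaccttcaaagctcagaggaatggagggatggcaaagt
FCGR3A, probe 2, first 30 bases: agaagctttaaactgaacatttcttgattc
FCGR1, first 30 bases: tcccttggcatcttactcttcaatagagca
FCGRT, first 30 bases: tgaggctaacttgttgccatggtggaattt
FCGR2A, probe 1, first 30 bases: aaattcttaggtggcaactcagggaaacaa
FCGR2A, probe 2, first 30 bases: agtgattgtttctggggatggaattattgg

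Before the receptors, the cells were checked against their markers. CD14 itself had a level of 12.17 in endometrial cells and 14.24 in blood cells of animal 1. In animals 2, 3 and 4 it lay at 6.41, 8.14 and 6.82 in endometrial cells and at 6.30, 7.63 and 6.69 in blood cells, although it was well above background in all 16 channels. CD3E of T cells lay at 7.19 in the blood cells of animal 1 and at 12.32, 11.26 and 12.50 in those of animals 2, 3 and 4. The samples labelled CD14+ thus differed between animal 1 and the other 3 animals in CD14 and CD3E. Not every marker followed, and CD3D lay at 6.45 and 6.51 in the endometrial cells of animals 1 and 3. Each receptor below is given by animal and also without animal 1. In bulk samples such as these, fewer cells of a type and less RNA per cell cannot be told apart.

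**Figure D1:**
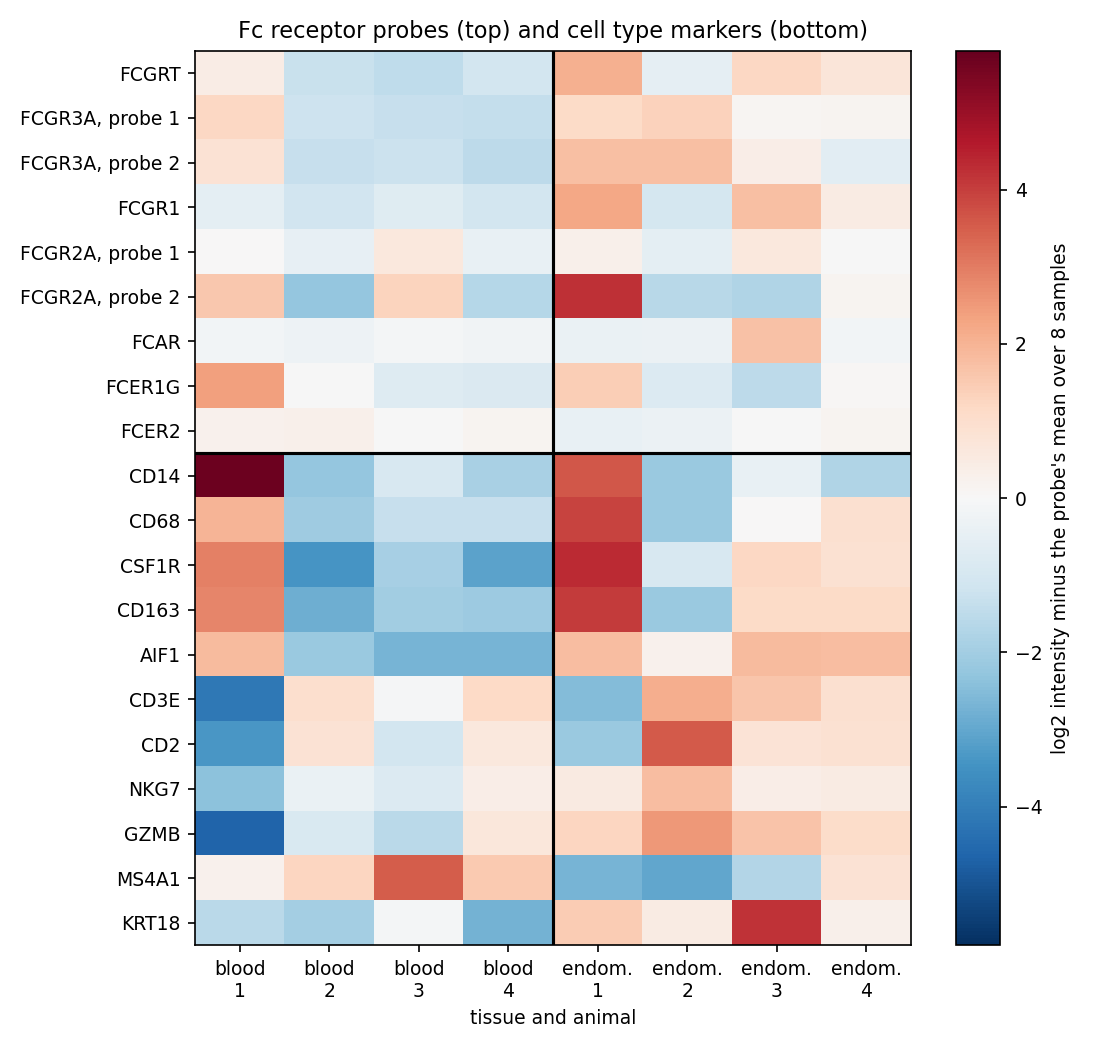
Log2 normalized intensity of the 9 Fc receptor probes (top) and of 11 cell type markers (bottom) in the blood and endometrial CD14+ cells of animals 1 to 4, each as the difference from the mean of that probe over the 8 samples. The monocyte markers CD14, CD68, CSF1R and CD163 are highest in the 2 samples of animal 1, and CD3E is lowest there. AIF1 does not follow them, and is about as high in the endometrial cells of animals 3 and 4.

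FCGRT, FCGR3A and FCGR1 were the 3 receptors whose mean level was over 2-fold higher in endometrial than in blood cells, at 3.27-fold, 2.56-fold and 3.32-fold. None of the 8 probes was called, which took a change of more than 2-fold and an adjusted p no higher than 0.05. Of all 16654 probes 11 were called, 0.0661% of them, and all 11 were higher in endometrial cells. With the p left unadjusted, 3 of the 8 probes passed the same limits, those of FCGRT, FCGR3A and FCGR1, all 3 higher in endometrial cells, where 5.27% of all probes passed in that direction and 5.11% in the other. Testing took at least 4 of 8 channels of a tissue well above background. FCGR1 met this through endometrial cells alone, with 6 channels against 2 in blood cells, so its pass upward is not independent of that filter. With all 8 channels of a tissue required, FCGR1 was not tested and 2 probes passed. In none of the 8 probes did all endometrial samples lie above all blood samples, as they did in 2.41% of all probes. The median log2 ratio of the 8 probes was 0.46 beside -0.023 for all probes tested. When each animal was left out in turn, FCGRT passed the unadjusted limits every time, and so did probe 2 of FCGR3A, which lies outside the rule. FCGR1 did not pass without animal 1 or animal 3, FCGR3A with probe 1 did not pass without animal 2, animal 3 or animal 4, and probe 2 of FCGR2A passed when animal 3 was left out.

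FCGR1 encodes CD64, the receptor that binds monomeric IgG and is typical of monocytes and macrophages. Its level was 9.29, 6.02, 8.79 and 7.51 in the endometrial cells of animals 1 to 4, and 6.46, 5.93, 6.31 and 5.99 in the blood cells. The endometrial cells of animals 1, 3 and 4 stood above every blood sample, while animal 2 was near the dimmest probes in both tissues, so the groups overlapped. The blood probe was well above background in 2 of 8 channels against 6 of 8 in endometrial cells. The log2 ratio was 1.73 (SE 0.50, 95% interval 0.49 to 2.98, n = 4), positive in 4 of 4 animals, with an adjusted p of 0.262 by limma. The 2 arrays of an animal differed by at most 0.37 in this ratio. Without animal 1 the log2 ratio was 1.36, with an adjusted p of 0.419. Its size depended on how dim intensities were treated, since in the authors' log2 values, which hold no offset, the mean ratio was 4.81, with 4.85, 0.48, 7.73 and 6.20 in animals 1 to 4.

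FCGR3A encodes CD16, found on macrophages, a part of the monocytes and natural killer cells. With probe 1 its level was 10.38, 10.61, 9.37 and 9.41 in endometrial cells and 10.47, 8.09, 7.91 and 7.89 in blood cells. The blood cells of animal 1 stood apart from the other 3 blood samples and matched the endometrial cells of the same animal, so the groups overlapped through that 1 sample. The log2 ratio was 1.35 (SE 0.45, 95% interval 0.23 to 2.48, n = 4), positive in 3 of 4 animals and -0.094 in animal 1, with an adjusted p of 0.280 by limma. Probe 2 gave levels of 12.97, 12.94, 11.61 and 10.61 in endometrial cells and 12.05, 9.87, 9.96 and 9.69 in blood cells. With that probe every animal was higher in endometrial cells, by 0.93, 3.07, 1.65 and 0.91, and the blood sample of animal 1 again lay within the endometrial range. Its log2 ratio was 1.64 (SE 0.42, 95% interval 0.57 to 2.71, n = 4), with an adjusted p of 0.262. Levels of the probes correlated with r = 0.95 over the 8 samples, as a description, with 4 samples in each tissue and both tissues of each animal among them. Without animal 1 the log2 ratios were 1.84 and 1.88 for probes 1 and 2.

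FCAR encodes the receptor for IgA on myeloid cells. Its level was 6.08, 6.16, 8.16 and 6.32 in endometrial cells and 6.31, 6.18, 6.37 and 6.26 in blood cells. The endometrial cells of animal 3 stood above the other 7 samples, which lay near the dimmest probes of the array, and 6 of 8 endometrial and 4 of 8 blood channels were well above background. The log2 ratio of 0.40 (SE 0.40, 95% interval -0.60 to 1.40, n = 4) had an adjusted p of 0.663 by limma, and it was -0.063 without animal 3 and 0.61 without animal 1.

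**Figure D2:**
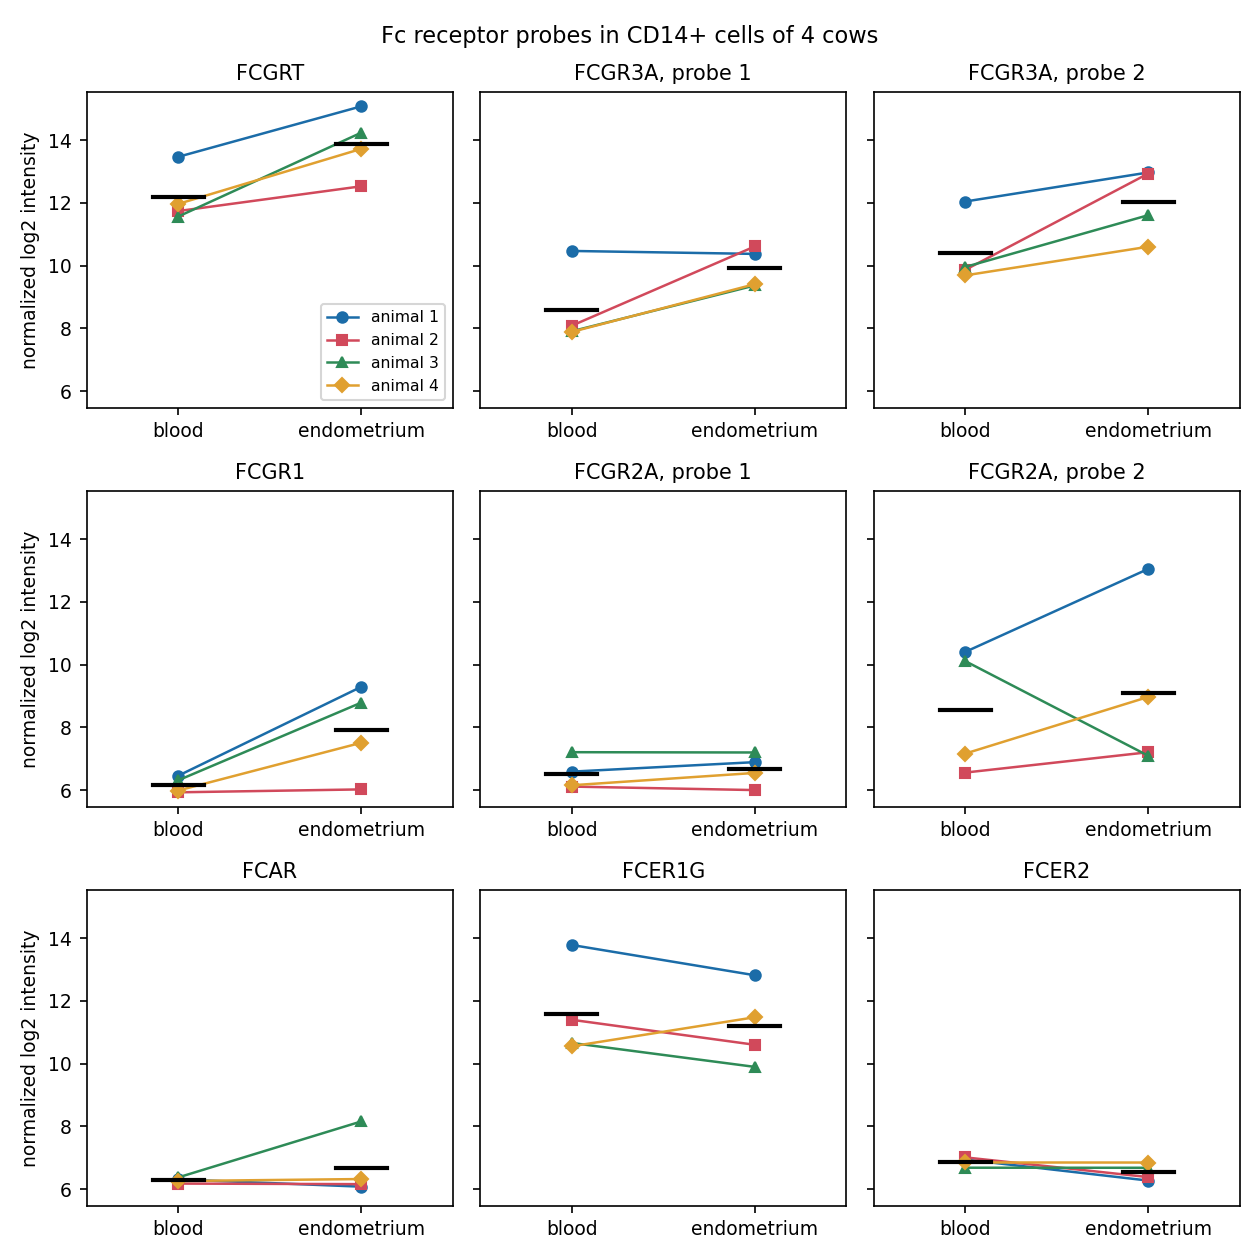
Log2 normalized intensity of each Fc receptor probe in blood and endometrial CD14+ cells, with a line for each of the 4 animals and a black bar at the mean of a tissue. FCGRT and probe 2 of FCGR3A climb from blood to endometrium in every animal, FCGR1 by more than 1 unit in animals 1, 3 and 4, and probe 2 of FCGR2A goes both ways.

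FCGR2A, which by its accession is the inhibitory receptor FCGR2B, gave different values with its 2 probes. Probe 1 was dim, at 6.89, 6.003, 7.20 and 6.55 in endometrial cells and 6.59, 6.11, 7.21 and 6.16 in blood cells. Its log2 ratio of 0.14 (SE 0.22, 95% interval -0.40 to 0.69, n = 4) did not pass the test, with an adjusted p of 0.792 by limma. Probe 2 had levels of 13.05, 7.21, 7.10 and 8.97 in endometrial cells and 10.41, 6.56, 10.12 and 7.17 in blood cells. The ratios of probe 2 had opposite signs among the animals, at 2.65, 0.65, -3.02 and 1.81, while its 2 arrays of an animal differed by at most 0.26. The mean of 0.52 (SE 0.95, 95% interval -1.86 to 2.91, n = 4) was below the spread of the animals, SD 2.50, with an adjusted p of 0.837. Without animal 1 the log2 ratios of probes 1 and 2 were 0.091 and -0.19. The probes correlated with r = 0.50 over the 8 samples.

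FCER2 encodes CD23, best known on B cells. It was dim in both tissues, at 6.27, 6.39, 6.68 and 6.85 in endometrial cells and 6.94, 7.01, 6.68 and 6.85 in blood cells. Animals 1 and 2 were lower in endometrial cells, by 0.67 and 0.63 log2 units, and the tissues of animals 3 and 4 differed by less than 0.01. The log2 ratio was -0.33 (SE 0.24, 95% interval -0.93 to 0.28, n = 4), with an adjusted p of 0.548 by limma, and -0.21 without animal 1. Its size also depended on the treatment of dim intensities, with a mean of -1.08 in the authors' log2 values.

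FCER1G, the signalling chain shared by FCGR1, FCGR3A and FCAR, had a lower mean level in endometrial than in blood cells. It stood at 12.82, 10.60, 9.90 and 11.48 in endometrial cells and 13.79, 11.40, 10.66 and 10.55 in blood cells. Animals 1, 2 and 3 were lower in endometrial cells, by ratios of -0.97, -0.80 and -0.76, and animal 4 was higher, by 0.93. The groups overlapped over most of their range. The log2 ratio was -0.40 (SE 0.38, 95% interval -1.37 to 0.57, n = 4), with an adjusted p of 0.649 by limma. Leaving out animal 4 gave -0.84, with an adjusted p of 0.280, and leaving out animal 1 gave -0.21, with an adjusted p of 0.879.

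FCGRT, the receptor of IgG transport, had the narrowest interval of the 3 receptors over 2-fold higher in endometrial cells. Its level was 15.08, 12.53, 14.24 and 13.73 in endometrial cells and 13.47, 11.74, 11.57 and 11.97 in blood cells. Each animal was higher in endometrial cells, by 1.61, 0.79, 2.67 and 1.76, but the endometrial cells of animal 2 lay below the blood cells of animal 1, so the groups overlapped. Of all probes tested, 10.2% were higher in endometrial cells in all 4 animals and 14.7% were higher in blood cells in all 4. The log2 ratio was 1.71 (SE 0.35, 95% interval 0.83 to 2.58, n = 4), with an adjusted p of 0.262 by limma. A fit to all 8 arrays with a dye term and the animal as a random block gave the same ratio with an adjusted p of 0.0243, past the threshold. In that fit the 2 arrays of an animal, technical repeats with a consensus correlation of 0.986, entered separately, and 455 of 16652 probes, 2.73%, were called as higher in endometrial cells. Without animal 1 the log2 ratio was 1.74. B2M, beta-2 microglobulin, is the light chain with which the FCGRT protein assembles, as do MHC class I proteins. It ran the other way, with levels of 13.74, 14.07, 13.87 and 14.55 in endometrial cells and 14.75, 15.03, 14.91 and 14.84 in blood cells. All 4 endometrial samples lay below all 4 blood samples, which 3.03% of all probes showed. The log2 ratio of B2M was -0.82 (SE 0.24, n = 4), under a 2-fold change, with an adjusted p of 0.263.

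**Figure D3:**
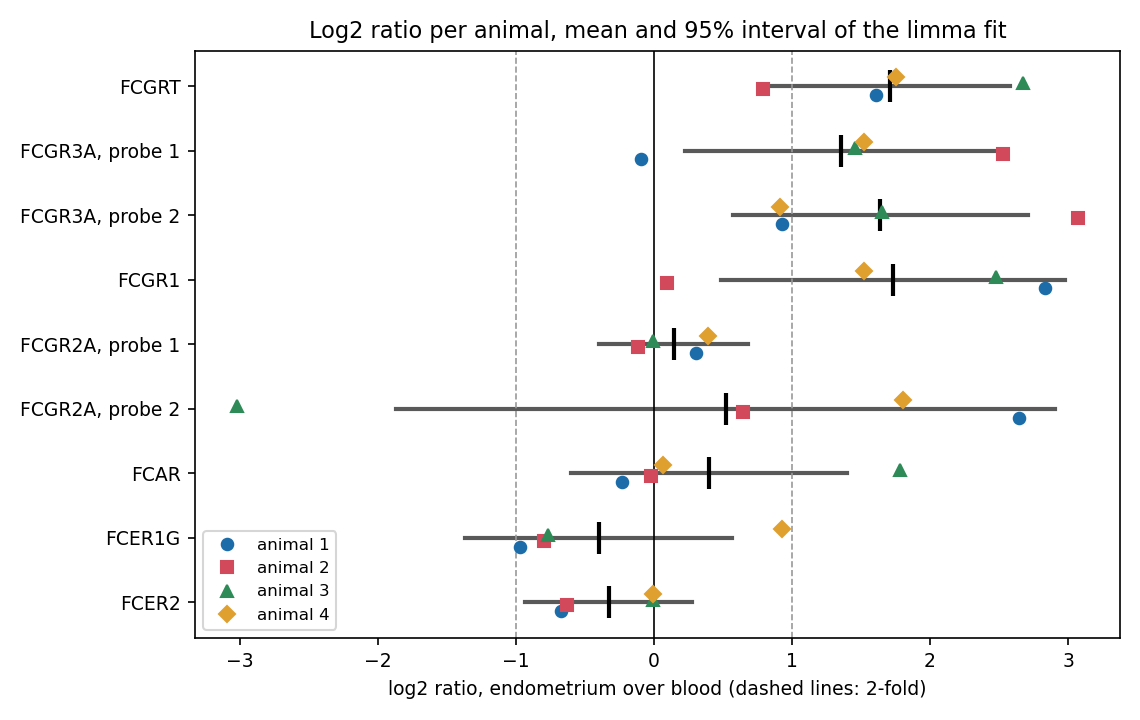
Log2 ratio of endometrium over blood for each Fc receptor probe, with 1 symbol for each animal, a black bar at the mean and a grey line for the 95% interval of the limma fit. The intervals of FCGRT, FCGR1 and both FCGR3A probes lie above 0 before adjustment, and the animals of FCGR2A probe 2 spread from -3.02 to 2.65.

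By mean log2 ratio, with the intensities offset as here, the probes ran from FCGR1 at 1.73, FCGRT at 1.71 and the FCGR3A probes at 1.64 and 1.35, through FCGR2A probe 2 at 0.52, FCAR at 0.40 and FCGR2A probe 1 at 0.14, to FCER2 at -0.33 and FCER1G at -0.40. The intervals of neighbours in this order overlapped throughout, and the order depended on the treatment of dim intensities, since in the authors' log2 values FCER2 at -1.08 lay below FCER1G at -0.39. In blood cells, animal 1 had the highest level of FCGRT, of both FCGR3A probes, of FCGR1, of FCER1G and of FCGR2A probe 2. In endometrial cells animal 2 had the lowest FCGRT and FCGR1 and the highest FCGR3A with probe 1, so the receptors did not share 1 order of the animals. Over the 8 samples FCGR1 and FCGRT correlated with r = 0.91, and FCGR1 and FCER1G with r = 0.12. By the order of genes in the RefSeq table, 2 genes stand between FCGR2B and FCGR3A and 22 between FCGR3A and FCER1G, so these 3 are near neighbours, with mean ratios of 0.14 or 0.52, 1.35 or 1.64 by probe, and -0.40.

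The levels of the receptors were also set beside monocyte markers. CD68, a lysosomal protein of macrophages, had levels of 12.93, 6.83, 9.03 and 9.94 in endometrial cells and 10.97, 6.95, 7.66 and 7.64 in blood cells. It correlated over the 8 samples with FCGRT at r = 0.86, with FCGR2A probe 2 at 0.83, with FCGR1 at 0.74 and with FCER1G at 0.72. For CD68 the FCGR3A probes had r of 0.57 and 0.52, FCGR2A probe 1 0.44, FCAR -0.024 and FCER2 -0.30. CD14 correlated with FCER1G at 0.85, with FCGR2A probe 2 at 0.75, with FCGRT at 0.58 and with FCGR1 at 0.38. For CD14 the FCGR3A probes had r of 0.58 and 0.54, FCGR2A probe 1 0.35, FCAR -0.066 and FCER2 -0.13. These are descriptions over samples that share animals and arrays. The probes of other named genes most like each receptor over the 8 samples, out of 13208, were SMARCA1 (r = 0.99), RTN1 (0.99) and PYROXD2 (0.99) for FCGR1, and REXO2 (0.98), CRYL1 (0.97) and TBC1D12 (0.97) for FCGRT. They were OSTC (0.98) and DAD1 (0.97) for the brighter FCGR3A probe, and PSTPIP2 (0.98), IFT27 (0.97) and NFE2 (0.97) for FCER1G. High values over these 8 samples were not limited to the probes named, and between 88 and 160 of the 13208 had r over 0.9 with each of the 4 receptors.

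Genes that act with these receptors were taken from lists. Among other receptors that bind antibodies or resemble those that do, 9 of 11 genes with a probe could be tested. PIGR alone passed the unadjusted p and the fold, 11.1% of the tested genes beside 5.27% of all probes in that direction. PIGR is the polymeric immunoglobulin receptor, which carries IgA and IgM across epithelium. Its level was 8.72, 7.79, 12.55 and 9.19 in endometrial cells and 8.09, 6.28, 8.54 and 6.41 in blood cells, with a log2 ratio of 2.23 (SE 0.58, n = 4), and an adjusted p of 0.262. Of 5 Fc receptor-like genes tested, a family best known from B cells, 3 were lower in endometrial cells in 4 of 4 animals, as were 14.7% of all probes, with log2 ratios of -0.89 for FCRL3, -0.72 for FCRL1 and -0.50 for FCRL5. FCRL4 at 0.0051 and FCRLB at 0.090 were higher in 2 of 4 animals. The sizes depended on the treatment of dim intensities, and the authors' log2 values gave -4.54 for FCRL3, -1.79 for FCRL1 and -3.13 for FCRL5. Of the endometrial channels of FCRL5, 2 of 8 stood well above background. FCRL3 was well above background in all 8 blood channels and in no endometrial channel. Its mean was 1.79-fold higher in blood cells, measured against the lowest signal above background. This fold comes from means over the 4 animals and is not a lower limit. The log2 ratio of -0.89 had an SE of 0.24 and an adjusted p of 0.262 by limma. TRIM21, which binds antibodies inside the cell, had a ratio of -0.019, and FCMR, the IgM receptor, of 0.080.

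Of the chains that pair with or signal for Fc receptors, 3 could be tested. CD247, the zeta chain that can serve FCGR3A in natural killer cells, had levels of 10.78, 14.25, 13.78 and 13.61 in endometrial cells and 8.60, 13.30, 12.64 and 13.15 in blood cells. It was higher in endometrial cells in 4 of 4 animals, as were 10.2% of all probes, with a log2 ratio of 1.19 (SE 0.33, n = 4), and an adjusted p of 0.262 by limma. In each tissue CD247 was lowest in animal 1, as was CD3E of T cells. TYROBP, the related adaptor of many myeloid and natural killer receptors, had ratios of -0.76, -0.76, 3.39 and 2.37 in animals 1 to 4, a split between pairs of animals, with a mean of 1.06 and an adjusted p of 0.566. MS4A2, the beta chain of the high-affinity IgE receptor, could not be tested, with 3 of 8 endometrial and 1 of 8 blood channels well above background.

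In the lists of genes downstream of the receptors, those that passed the unadjusted p and the fold were all lower in endometrial cells. Of 29 kinases and adaptors of activating signals, 3 passed the unadjusted p and the fold, all 3 lower in endometrial cells, 10.3% beside 5.11% of all probes in that direction. They were PRKCE, a protein kinase C, at -1.92, LYN, a SRC family kinase that phosphorylates the activation motif, at -1.91, and GRB2, an adaptor to RAS, at -1.62. The list had a median of -0.19. SYK, the kinase that binds the phosphorylated motif, had ratios of -1.13, -1.07, -2.30 and 1.34 in animals 1 to 4, and it shared with FCER1G a positive ratio in animal 4 alone. Its mean was -0.79 (SE 0.60, adjusted p = 0.559 by limma).

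Among 12 inhibitory genes, PAG1, an adaptor that recruits the kinase CSK, passed at -2.35 (adjusted p = 0.262 by limma), and the median was 0.17. That is 8.33% of the list, near the 5.11% of all probes that passed as lower in endometrial cells. INPP5D, the lipid phosphatase recruited by FCGR2B, had ratios of -1.04, -0.48, 0.50 and 1.55, with a mean of 0.13. Of 24 genes of the actin machinery of phagocytosis, CRKL at -1.42 and ELMO1 at -1.07 passed, both lower in endometrial cells, around a list median of -0.14. This is 8.33% of the list, again near the 5.11% of all probes. None of 5 NADPH oxidase genes passed, and their median was -0.44. JCHAIN, which joins the chains of IgA and IgM and was the 1 antibody chain gene with a probe, was lower in endometrial cells in 4 of 4 animals, with a log2 ratio of -2.38 (SE 0.63, adjusted p = 0.262 by limma). No gene of these lists was called at the adjusted p.

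**Figure D4:**
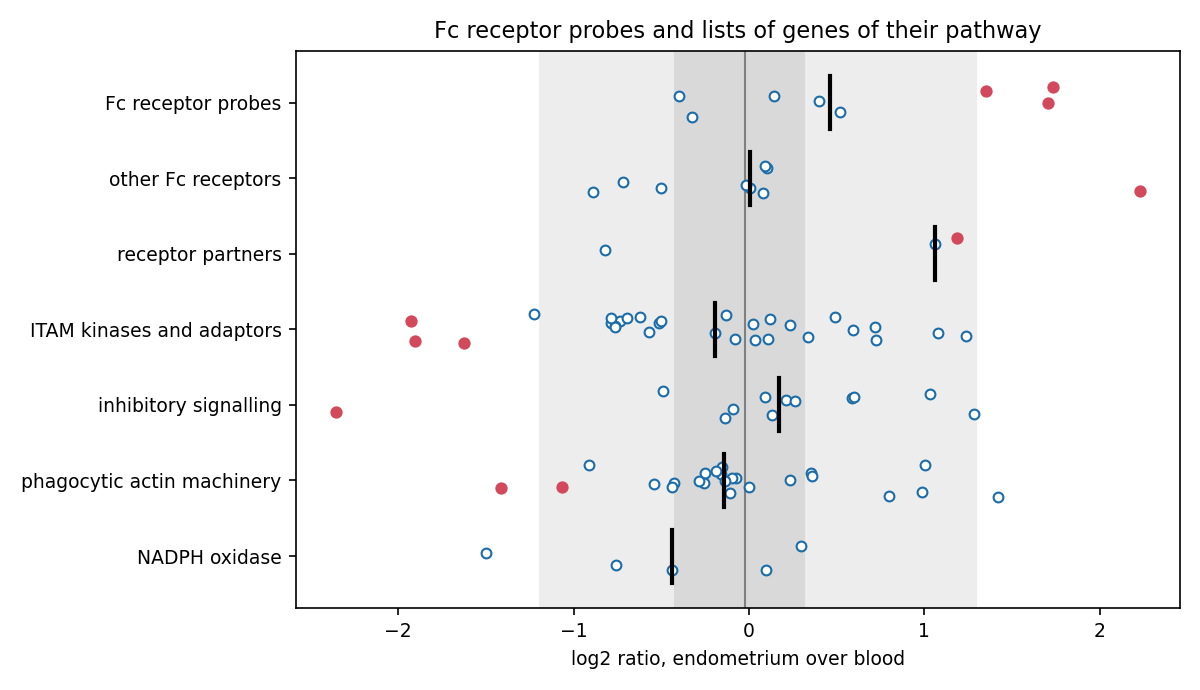
Log2 ratio of endometrium over blood for the 8 Fc receptor probes and for the tested genes of 6 lists, with filled points where the unadjusted p was no higher than 0.05 and the change more than 2-fold, open points otherwise, and a black bar at each median. Dark and light grey bands run from percentile 25 to 75 and from percentile 5 to 95 of all probes tested. The 3 filled receptor probes lie on the right, and the filled kinases and actin genes lie on the left.

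Markers of other cells moved with these comparisons, and their part in the results was not tested. Of 8 monocyte and macrophage markers, 5 passed the unadjusted p and the fold, all higher in endometrial cells, as did 5.27% of all probes in that direction. CSF1R at 2.76 and MRC1 at 2.63 were among them, while CD14 at -0.33, LYZ at -1.12 and ITGAM at -0.30 had negative ratios and did not pass. The mean level of the list ranged from 8.29 to 12.43 in endometrial cells and from 7.56 to 12.24 in blood cells. Natural killer cells are known to carry CD16 and FCER1G. Of 12 markers of T cells and of natural killer cells, 5 passed, all higher in endometrial cells, with GZMB at 3.23 and KLRB1 at 1.75. CD3D at -0.41, NCR1 at -0.26, CD3G at -0.13 and CD8A at -0.059 had negative ratios and did not pass. NCR1 was lower in endometrial cells in every animal. The mean level of this list ranged from 8.56 to 12.48 in endometrial cells and from 7.07 to 11.06 in blood cells. Of 8 B cell markers, 5 passed and were lower in endometrial cells, as did 5.11% of all probes in that direction. MS4A1 was at -3.28, and the list had mean levels of 7.47 to 9.57 against 8.88 to 11.13.

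For the marker counts that follow, 5.27% of all probes passed the unadjusted limits as higher in endometrial cells and 5.11% as lower. At the adjusted p, 0.0661% of all probes passed as higher. The endothelial, mast cell and granulocyte counts rest on 1 gene each. Epithelial cells are known to express FCGRT and PIGR. Of 7 epithelial markers, 6 passed and were higher in endometrial cells, with mean levels of 9.38 to 12.74 against 6.81 to 8.30, and none was at background in every channel. Trophoblast markers were higher too, 5 of 6 past the unadjusted p and 4 past the adjusted one, with mean levels of 9.41 to 10.64 against 6.64 to 7.37, and GCM1 stood well above background in none of the channels. Stromal markers ranged from 6.24 to 13.28 in endometrial cells, highest in animal 1, and from 6.08 to 7.68 in blood cells, with 2 of 6 passing. Endothelial markers had 1 of 6 passing, VWF at 1.72, while CLDN5 at -0.34 had a negative ratio. Mast cell and basophil markers had 1 of 4 passing, GATA2 at 1.39. KIT at 1.06, HDC at -0.11 and TPSB2 at -0.074 did not pass. Granulocyte markers had 1 of 4 passing, lower in endometrial cells, and CAMP, CATHL1 and CATHL4 stood well above background in none of the channels. LTF at 1.17 was higher in endometrial cells in 4 of 4 animals and did not pass.

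**Figure D5:**
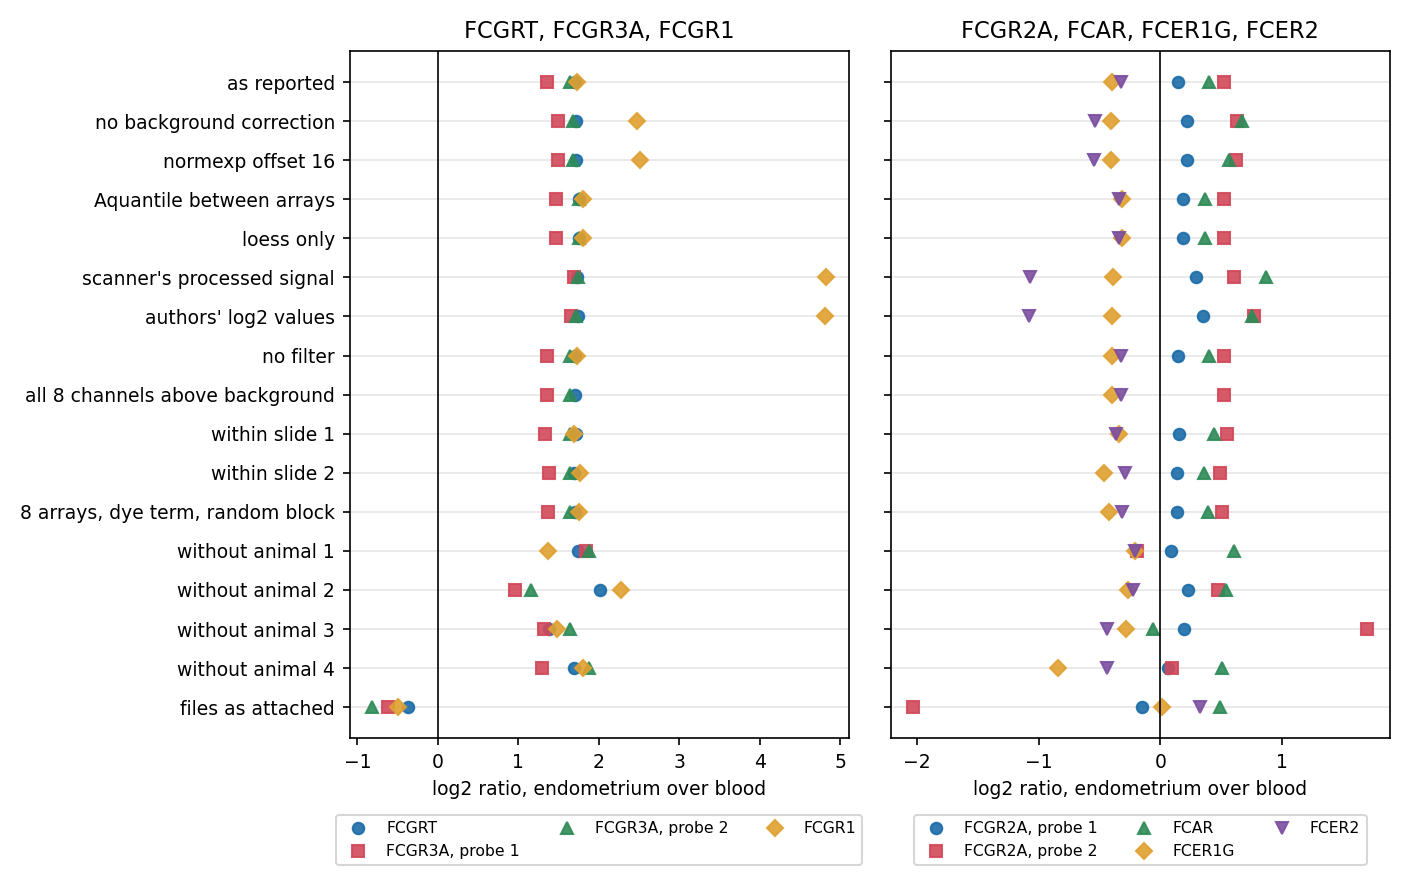
Log2 ratio of each Fc receptor probe as reported and under 16 other settings, leaving out the 2 that change the test and not the ratio, with FCGRT, FCGR3A and FCGR1 on the left and the other probes on the right. FCGRT, FCGR3A and FCGR1 stay above 0 in every setting drawn but the reading of the files as attached to the samples, and FCGR1 spreads from 1.36 to 4.82.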

How the data were processed

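RNA of CD14+ cells from endometrium and blood of 4 cows was hybridized on 8 2-colour arrays. The authors deposited scanner files with a median intensity and local background for each spot and dye (Agilent Feature Extraction, 10.5.1.1 per the file headers and 9.5 per the submitters' processing notes), and log2 values that the authors had normalized by lowess and quantiles. By rank of the processed signal, all 16 columns of log2 values equaled, at 100% of probes within 0.001, the dye labeled for that sample in the scanner file given with the animal's other array, so files were read in that way, a choice made after the files were examined.

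Intensities were corrected by normexp (offset 50), normalized by loess and quantiles, and averaged per probe with limma 3.58.1 in R 4.3.3, without control and outlier spots. No spot was saturated. Probes were tested if well above background in at least 4 of 8 channels of a tissue. The ratio of each animal was tested against 0 with lmFit and eBayes. An exact test over 4 pairs cannot give a p under 0.125. The labels pair the tissues of an animal, whose deviations from the tissue means correlated with r of 0.62, 0.36, 0.21 and 0.46. The fit was tested on simulated data in which all probes had the same spread. The probes here differ in spread, which that test does not cover. Probe names came from RefSeq (ARS-UCD2.0) by accession or gene identifier where possible. All Fc receptor probes were named, and from the lists genes set by rule and up to 2 passing genes a list and direction. Other list genes were named after their values were seen, and 2 genes are not reported here. Of several probes of a list gene the brightest was used. The receptors and the lists were chosen with earlier results of these data known. Alternatives changed the background correction, normalization, filter, pairing, slide, dye term, animals, test and reading of the files.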

Additional observations from a re-analysis of the deposited data

Results flagged for a closer look

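In each tissue and for the ratio, a value was marked where 1 of 4 animals was separated from the nearest of the others by more than 82.9% of the range. This held for 5 of 27 sets of 4 values, where chance gives about 1 in 20. The sets are not independent, since the ratios come from the same levels and some genes have 2 probes. The count can therefore not be read as an excess over that share. The blood cells of animal 1 stood above the others for FCGR3A, at 10.47 with probe 1 and 12.05 with probe 2. The endometrial cells of animal 3 stood above the others for FCAR, at 8.16, and so did their ratio, at 1.78. The FCER1G ratio of animal 4, 0.93, stood above those of the other 3 animals, which were negative.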

How the results depend on the processing

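FCGRT, FCGR1 and both FCGR3A probes kept a higher level in endometrial cells under every alternative in which they were tested, apart from the reading of the files as attached. The counts of probes called depended most on the processing. The 11 probes called among all became 50 with no background correction, 66 with an offset of 16, 171 with the scanner's processed signal, 224 with the authors' log2 values, 44 among probes above background in all 8 channels of a tissue, and 792 with a dye term and the animal as a random block. They became 5 with Aquantile, with loess only, with no filter and within slide 1, 20 within slide 2, and 0 by the methods' analysis of variance, without any 1 animal, and with the files as attached. Without the pairing of tissues by animal, 4 were called. The number of Fc receptor probes called was 0 by limma, with 3 at an unadjusted p, and became 1, FCGRT, with the dye term and random block, where FCGR3A probe 2 also passed at an adjusted p of 0.0304. The count of 3 at the unadjusted p became 1 by the methods' analysis of variance, 1 with the files as attached, where the probe that passed was FCGR2A probe 2, lower in endometrial cells, and none of the 3 did, and 2 without any 1 animal, without the pairing, or among probes above background in all 8 channels. The 9 genes of the pathway lists that passed became 14 with an offset of 16 and with the dye term, 16 with the processed signal or the authors' values, 2 by the methods' analysis of variance, 0 with the files as attached, and 6 to 15 without 1 animal. FCGR2A probe 2 was -0.19 without animal 1 and 1.70 without animal 3, and FCAR was -0.063 without animal 3 and 0.61 without animal 1. With the files as attached, a reading added after the values were seen, in which the tissues of animals 1, 2 and 4 change places, the log2 ratios were -0.37 for FCGRT, -0.49 for FCGR1, -0.62 and -0.81 for FCGR3A, -0.15 and -2.03 for FCGR2A, 0.32 for FCER2 and 0.018 for FCER1G. Apart from the effect of reading the files, the causes were not tested. FCGR1 is limited by signal near background in blood cells, and FCER2 and FCGR2A probe 1 by dim signal in both tissues. FCAR lay near the dimmest probes in both tissues, apart from the endometrial cells of animal 3.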

Other observations

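A receptor gene for IgG outside the name rule, LOC407171, is the Fc gamma 2 receptor of cattle. Its level was 7.46 in the endometrial cells and 8.56 in the blood cells of animal 1, and it was at most 6.15 in every sample of the other 3 animals, with 2 of 8 channels of each tissue well above background, so it was not tested. MS4A2, the beta chain of the high-affinity IgE receptor, lay at 8.16 in the endometrial cells of animal 3 and between 5.96 and 6.19 in the other 7 samples. FCAR was high in the same sample, as was the epithelial keratin KRT18, at 13.56 beside 9.64 to 10.82 in the endometrial cells of the other animals.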
